A study of Homo sapiens with 6 samples.

Results

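The mitosis and spindle genes described here were 52 genes that act at mitotic entry, at the kinetochore and spindle, or in cytokinesis. They were picked by name for their textbook roles from the 58735 genes of the deposited table. The rule uses no measured value, although earlier results of these data were known when the list was drawn up. All 52 were found in that table under 1 symbol each, and all 52 passed the filter on low counts that left 15319 genes for testing. RNA was sequenced in 6 libraries of AsPC-1, an established cell line from a human pancreatic tumour. In the Vector group (n = 3) the cells were labelled WT and carried an empty lentivirus. In the OE-MMP28 group (n = 3) they carried a lentivirus with the cDNA of MMP28, a secreted matrix metalloproteinase. Per the study's methods the MMP28 lentivirus also carried GFP and puromycin resistance and stable lines were selected with puromycin, while the promoter that drives the cDNA was not given. The study followed proliferation with other assays, among them EdU staining of cultured cells and staining for Ki67 protein in xenograft tumours in mice. The comparison here addresses the RNA of the machinery of cell division in the AsPC-1 cells.

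A cell enters mitosis when cyclins A and B activate the kinase CDK1, with CDC25 phosphatases and the kinases PLK1 and AURKA on the activating side. Kinetochores then attach the chromosomes to the spindle, and the spindle assembly checkpoint holds back the anaphase-promoting complex, a ubiquitin ligase, until attachment is complete. CDC20 then directs that ligase to cyclin B and securin, the chromatids separate and the cell divides. Most of these genes are transcribed late in the cell cycle, under MYBL2, FOXM1 and the MuvB complex, which acts through a promoter element called CHR, often near CCAAT boxes. In bulk RNA a change in the share of cells that divide and a change in RNA per dividing cell cannot be told apart.

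Promoter sequences of the 6 members that were called higher in OE-MMP28 cells are shown because the elements known to time such genes can be read in them. They were taken from RefSeq on build GRCh38.p14, run from 130 bases before to 20 bases after an annotated start, and are written 5′ to 3′ along the gene. Capitals mark the CHR forms TTTGAA and TTTAAA and the box CCAAT on either strand, so that TTTGAA and CCAAT on the other strand read TTCAAA and ATTGG. ECT2 had 2 annotated starts, of which the first is shown.
DLGAP5 (chr14:55191566-55191715, minus strand): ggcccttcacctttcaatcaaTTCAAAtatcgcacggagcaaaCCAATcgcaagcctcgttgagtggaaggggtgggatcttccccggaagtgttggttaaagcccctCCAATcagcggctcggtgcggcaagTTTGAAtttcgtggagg
CDC20 (chr1:43358851-43359000, plus strand): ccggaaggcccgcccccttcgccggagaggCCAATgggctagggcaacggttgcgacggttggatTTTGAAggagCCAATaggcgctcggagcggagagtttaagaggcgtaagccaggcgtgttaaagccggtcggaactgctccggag
ECT2 (chr3:172750596-172750745, plus strand): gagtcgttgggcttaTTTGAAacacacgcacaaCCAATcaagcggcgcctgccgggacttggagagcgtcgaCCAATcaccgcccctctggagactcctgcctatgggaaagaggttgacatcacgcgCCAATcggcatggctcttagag
PLK1 (chr16:23678759-23678908, plus strand): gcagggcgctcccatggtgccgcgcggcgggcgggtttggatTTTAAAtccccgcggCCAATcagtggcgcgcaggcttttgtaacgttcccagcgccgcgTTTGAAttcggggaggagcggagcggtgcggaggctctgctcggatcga
CCNB1 (chr5:69167020-69167169, plus strand): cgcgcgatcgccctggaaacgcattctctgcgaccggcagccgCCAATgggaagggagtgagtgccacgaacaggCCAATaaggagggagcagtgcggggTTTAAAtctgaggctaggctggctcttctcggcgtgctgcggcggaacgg
CCNA2 (chr4:121823864-121824013, minus strand): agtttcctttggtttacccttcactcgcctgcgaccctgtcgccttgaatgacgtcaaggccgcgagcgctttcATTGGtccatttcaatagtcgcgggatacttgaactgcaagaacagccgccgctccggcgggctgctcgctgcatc

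Promoters of 44 of the 52 members were in the RefSeq table, and those of AURKA, BIRC5, BUB3, FOXM1, RACGAP1, TPX2, TTK and UBE2C were not. Either CHR form was found within the 300 bases around a start (250 before and 50 after, both strands) in 36 of the 44 members (81.8%), against 27.9% of the 27305 genes in that table. CCAAT was found in 36 of the 44 members (81.8%), against 39.7% of all genes, and both kinds of element in 30 members, 68.2% against 12.7%. Among the 37 members with a single annotated start, 30 held a CHR form, against 24.9% of all genes with a single start. The elements did not separate the members that were called from the rest. TTTGAA or TTTAAA was present in 5 of the 6 called members, all but CCNA2, and in 31 of the 38 others, and CCAAT in 6 of 6 and in 30 of 38. Other forms of CHR were not searched, so that a gene counted as without it, such as CCNA2, may hold another form. These matches are descriptions of letters, and binding was not measured.

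MMP28 itself was read first, as the check of the labels. Its FPKM, a read count scaled to gene length and library total, was 5.17, 9.11 and 8.43 in the Vector libraries and 13.1, 13.9 and 15.1 in the OE-MMP28 libraries, so the groups did not overlap. Its log2 fold change was 0.90 with a standard error of 0.19 and an adjusted p of 0.00226 (edgeR's quasi-likelihood test). Total counts were 13633249 to 16691458 per library, so that a count of 0 allows up to 0.180 to 0.220 CPM (the count scaled to a library total of 1e+06), for counting error only. The epithelial markers KRT8, KRT18, KRT19, EPCAM and CDH1 were all expressed, at 68.9 CPM or more in each library. The 15 markers of leukocytes, fibroblasts and endothelium reached at most 1.96 CPM in a library. Of them PECAM1 was called higher in OE-MMP28 cells, at 0.816 to 1.82 CPM against 0 to 0.297 CPM, while CDH5, another endothelial marker, was at or near 0 throughout. Mitochondrial genes took 11.9% to 14.8% of the counts in Vector and 8.80% to 11.9% in OE-MMP28 libraries, and 6 members were called higher with or without those genes. The labels did not say whether libraries of a group came from separate cultures, so p-values measure only the spread between these libraries.

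The members were well expressed. The median of their mean FPKM in the Vector group was 16.3, against 4.37 over all genes tested, and 41 of 52 reached 10 FPKM. UBE2C, the ubiquitin-conjugating enzyme of the anaphase-promoting complex, had the highest level at 115 ± 18.8 FPKM (SD, n = 3) in Vector cells, followed by TPX2 at 71.3 ± 4.57 and MYBL2 at 62.0 ± 3.49. PRC1, which bundles microtubules in the central spindle, was the only member under 1 FPKM and had 100 reads in the 6 libraries together. Of its overlapping neighbours, AC068831.7 lies on the same strand across 29440 bases of PRC1 and held 780 reads, so that the value of PRC1 is uncertain.

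In OE-MMP28 cells 6 of the 52 members were called higher at an adjusted p under 0.05, namely DLGAP5, CDC20, ECT2, PLK1, CCNB1 and CCNA2, and 0 were called lower. Folds ran from 1.43 for CCNB1 to 1.82 for DLGAP5. The share called higher was 11.5% of the members and 11.7% of all genes tested, and the share of all genes called lower was 11.6%. At an unadjusted p under 0.05, 10 members (19.2%) were higher and 3 (5.77%) lower, against 18.2% and 17.6% of all genes. DESeq2 called 6 higher and 1 lower, which was BUB3. With the study's fold limit added (absolute log2 fold change over 1), 0 members were called higher or lower, against 3.06% and 4.32% of all genes. Small shifts to the higher side were more common than calls. The log2 fold change was above 0 in 40 of 52 members (76.9%), against 51.2% of all genes, and its median was 0.17 over the members and 0.01 over all genes. The count above 0 was 39 or 40 with the other scalings and tests on all libraries, and 35 to 43 with single libraries left out, the lowest without OE-MMP28 replicate 1. The libraries of the groups did not overlap, with OE-MMP28 higher, in 17 members (32.7%) against 19.5% of all genes, and with OE-MMP28 lower in 2 members (3.85%) against 18.6%. These shares stand for themselves, since members that are transcribed together are not independent of each other.

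**Figure D1:**
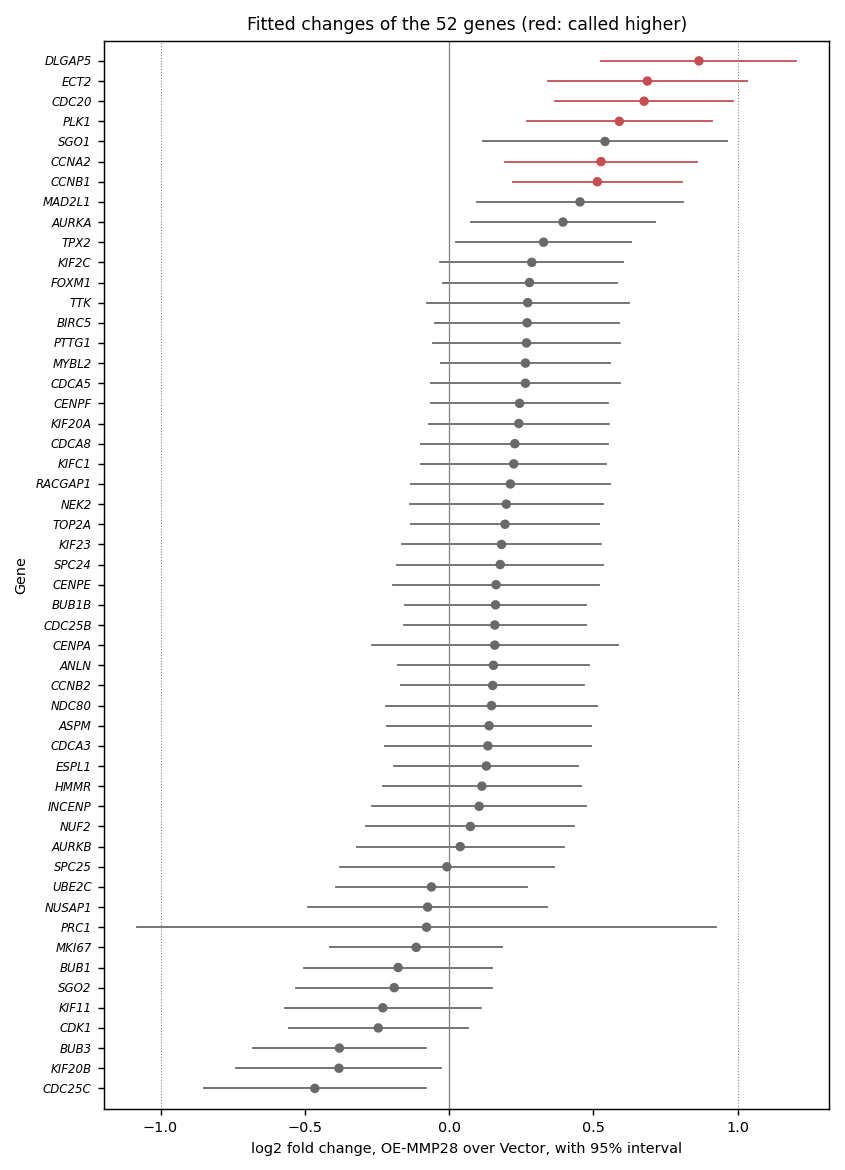
The fitted log2 fold change of OE-MMP28 over Vector (x axis) of each of the 52 genes (y axis, sorted), with its 95% interval as a line, in red for the 6 genes called higher. Points run from -0.47 for CDC25C to 0.87 for DLGAP5, and 40 of the 52 lie to the right of 0.

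The size of what could have been missed was bounded by the 95% intervals of single genes, which were not adjusted for the number of genes. The interval lay wholly within an absolute log2 fold change of 1 for 49 members. DLGAP5, ECT2 and PRC1 were the exceptions. It included 0 for 39 members, and its median width was 0.66.

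Genes of mitotic entry held 3 of the 6 calls among their 10 members. CCNB1, cyclin B1 and the main partner of CDK1, was measured at 161, 142 and 160 CPM in Vector cells and at 227, 217 and 216 CPM in OE-MMP28 cells, each given here and hereafter in the order of the replicate numbers. The lowest OE-MMP28 library stood well above the highest Vector library, and the log2 fold change was 0.51 with a standard error of 0.14 (edgeR adjusted p = 0.0120). CCNA2, cyclin A2, which works in S phase and at mitotic entry, was measured at 65.3, 55.01 and 67.3 CPM in Vector cells and at 105, 87.7 and 77.6 CPM in OE-MMP28 cells. These groups did not overlap either, and the log2 fold change was 0.53 with a standard error of 0.16 (edgeR adjusted p = 0.0209). PLK1, the kinase that drives entry, centrosome maturation and later steps, was measured at 88.0, 65.4 and 85.2 CPM in Vector cells and at 117, 126 and 117 CPM in OE-MMP28 cells. Its log2 fold change was 0.59 with a standard error of 0.15 (edgeR adjusted p = 0.00874), again with no overlap. The other 7 members of this role were not called, and they held values on both sides of 0. CDK1 itself had a log2 fold change of -0.25 (adjusted p = 0.249), and CDC25C, a phosphatase that activates it, one of -0.47 (adjusted p = 0.0730) with all 3 OE-MMP28 libraries under all Vector libraries. AURKA had a log2 fold change of 0.39 (adjusted p = 0.0676) and CCNB2 one of 0.15 (adjusted p = 0.514), both with all OE-MMP28 libraries above all Vector libraries, while CDC25B, NEK2 and CDCA3 lay between 0.13 and 0.20 with overlap. Reads of CCNA2 and CDC25C may be shared with EXOSC9 and FAM53C, which overlap them on the opposite strand, since the library kit was not stated to keep the strand.

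Calls for 3 of these genes were lost in fits without 1 library. Their folds changed little without OE-MMP28 replicate 2, while that of CCNA2 fell in other fits. Without OE-MMP28 replicate 2 the log2 fold changes were 0.52 for CCNB1 (adjusted p = 0.0570), 0.55 for PLK1 (0.0618) and 0.54 for CCNA2 (0.0759). In that fit 3 members (5.77%) were called higher, CDC20, DLGAP5 and ECT2, and so were 6.27% of all genes. CCNA2 was also not called without Vector replicate 2 (0.44, adjusted p = 0.0727) or without OE-MMP28 replicate 1 (0.38, adjusted p = 0.0852). The log2 fold change of CCNB1 was 0.45 to 0.55 over the 16 alternative fits.

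**Figure D2:**
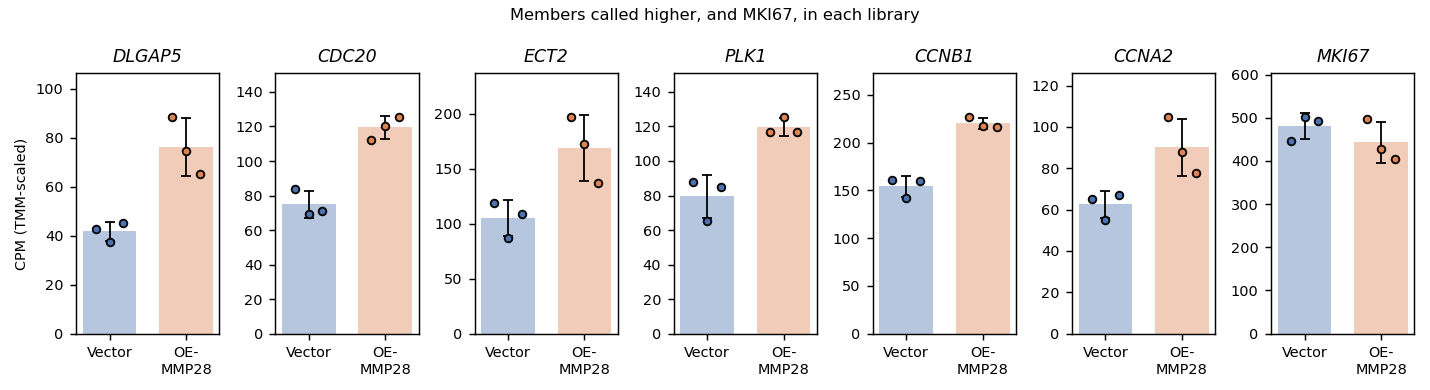
TMM-scaled CPM (y axis from 0, a separate scale in each panel) of the 6 members called higher and of MKI67 in the 3 Vector and 3 OE-MMP28 libraries (x axis). Points are libraries in the order of their replicate numbers, bars are means and lines are 1 SD. The groups do not overlap in the 6 called genes and overlap in MKI67.

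The transcription factors that drive late cell cycle genes showed smaller differences. FOXM1 was measured at 73.5, 69.3 and 73.7 CPM in Vector cells and at 87.3, 92.9 and 82.4 CPM in OE-MMP28 cells. The groups did not overlap, yet the log2 fold change of 0.28 with a standard error of 0.15 did not pass the test (edgeR adjusted p = 0.174). MYBL2 gave a similar value, 0.26 (adjusted p = 0.184), also without overlap. FOXM1 shares bases with RHNO1 and ITFG2 on the opposite strand.

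At the anaphase-promoting complex the picture was uneven. CDC20, the activator that the checkpoint restrains, was measured at 83.9, 69.5 and 71.1 CPM in Vector cells and at 112, 120 and 126 CPM in OE-MMP28 cells. All OE-MMP28 libraries were above all Vector libraries, and the log2 fold change was 0.68 with a standard error of 0.15 (edgeR adjusted p = 0.00264). It was the only member called higher in each of the 16 alternative fits. UBE2C had a log2 fold change of -0.06 (adjusted p = 0.823), and its 95% interval ran from -0.39 to 0.27.

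Of the spindle motors and microtubule factors, 1 of 8 was called. DLGAP5, also known as HURP, which stabilizes the microtubules that reach the kinetochores, was measured at 42.5, 37.4 and 45.2 CPM in Vector cells and at 88.5, 74.4 and 65.1 CPM in OE-MMP28 cells. It had the largest change of all members, a log2 fold change of 0.87 with a standard error of 0.16 (edgeR adjusted p = 0.000769). TPX2, which activates AURKA on the spindle, had a log2 fold change of 0.33 (adjusted p = 0.110) with groups that did not overlap, as did KIF2C, a kinesin that takes microtubules apart, at 0.29 (adjusted p = 0.184). KIF11, the motor that pushes the spindle poles apart, had a value of -0.23 (adjusted p = 0.329), and KIFC1, HMMR, ASPM and NUSAP1 lay between -0.07 and 0.22.

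Cytokinesis likewise had 1 called gene among 7. ECT2, the exchange factor that activates RhoA for the contractile ring, was measured at 119, 87.0 and 109 CPM in Vector cells and at 198, 173 and 137 CPM in OE-MMP28 cells. The groups did not overlap, and the log2 fold change was 0.69 with a standard error of 0.17 (edgeR adjusted p = 0.00532). The proteins it works with at the division site gave smaller values that did not pass the test. RACGAP1, which binds ECT2, had a log2 fold change of 0.21 (adjusted p = 0.381), KIF23, the motor partner of RACGAP1, 0.18 (adjusted p = 0.464) and ANLN, a scaffold of the ring, 0.15 (adjusted p = 0.523). KIF20A had a value of 0.24 (adjusted p = 0.259) and KIF20B one of -0.38 (adjusted p = 0.112).

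No member of the spindle assembly checkpoint was called, although this role held values on both sides. MAD2L1, the checkpoint protein that sequesters CDC20, was measured at 63.1, 43.6 and 61.5 CPM in Vector cells and at 85.1, 80.3 and 65.0 CPM in OE-MMP28 cells. The groups did not overlap and the log2 fold change was 0.45 with a standard error of 0.17, just outside the threshold (edgeR adjusted p = 0.0598). It passed without Vector replicate 1 (adjusted p = 0.0366) or without OE-MMP28 replicate 3 (0.0422). In the other fits that leave out 1 library the adjusted p was 0.0894 to 0.241, and the log2 fold change was lowest, at 0.30, without Vector replicate 2. BUB3 pointed the other way, at -0.38 (adjusted p = 0.0606), again without overlap. It was called lower in 5 of the 16 alternative fits, among them those without Vector replicate 2 (adjusted p = 0.0481) and without OE-MMP28 replicate 1 (0.0396). BUB1, BUB1B and TTK had log2 fold changes of -0.18, 0.16 and 0.27.

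Kinetochore and passenger complex genes held no call. CENPF, a large kinetochore protein, was measured at 188, 190 and 220 CPM in Vector cells and at 268, 223 and 218 CPM in OE-MMP28 cells. It had the highest log2 fold change of the 7 centromere and kinetochore members, 0.24 with a standard error of 0.15 (edgeR adjusted p = 0.244), and the groups overlapped. In the remainder (CENPA, CENPE, NDC80, NUF2, SPC24 and SPC25) the values lay between -0.01 and 0.18, with overlap in each. BIRC5, survivin, the subunit that brings the passenger complex to centromeres, was measured at 56.5, 46.9 and 55.6 CPM in Vector cells and at 66.4, 66.1 and 59.3 CPM in OE-MMP28 cells. Its log2 fold change of 0.27 did not pass the test (edgeR adjusted p = 0.213). AURKB, the kinase of that complex, had a value of 0.04 (adjusted p = 0.902). The genes SLC35F6 and NOSTRIN overlap CENPA and SPC25. They held 1941 and 1836 reads in all libraries together, against 1068 and 2070 reads of those members.

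Among genes of cohesion and separation, SGO1, shugoshin 1, which protects centromeric cohesion, was measured at 11.8, 9.19 and 13.1 CPM in Vector cells and at 20.3, 14.4 and 15.04 CPM in OE-MMP28 cells. The groups did not overlap, but the log2 fold change of 0.54 with a standard error of 0.20 fell short of the threshold (edgeR adjusted p = 0.0586). PTTG1, securin, and CDCA5, sororin, had values of 0.27 and 0.26, ESPL1, separase, 0.13 and SGO2 -0.19, none of them called.

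MKI67, the gene of Ki67, which coats mitotic chromosomes and is the usual marker of dividing cells, did not differ detectably. It was measured at 446, 503 and 491 CPM in Vector cells and at 497, 429 and 406 CPM in OE-MMP28 cells. The groups overlapped, and the log2 fold change was -0.11 with a standard error of 0.14 (edgeR adjusted p = 0.606) and a 95% interval from -0.41 to 0.18. TOP2A, topoisomerase II alpha, which untangles the chromatids, was measured at 256, 241 and 292 CPM in Vector cells and at 350, 308 and 244 CPM in OE-MMP28 cells. Its log2 fold change was 0.19 (edgeR adjusted p = 0.400), with a 95% interval from -0.13 to 0.52.

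**Figure D3:**
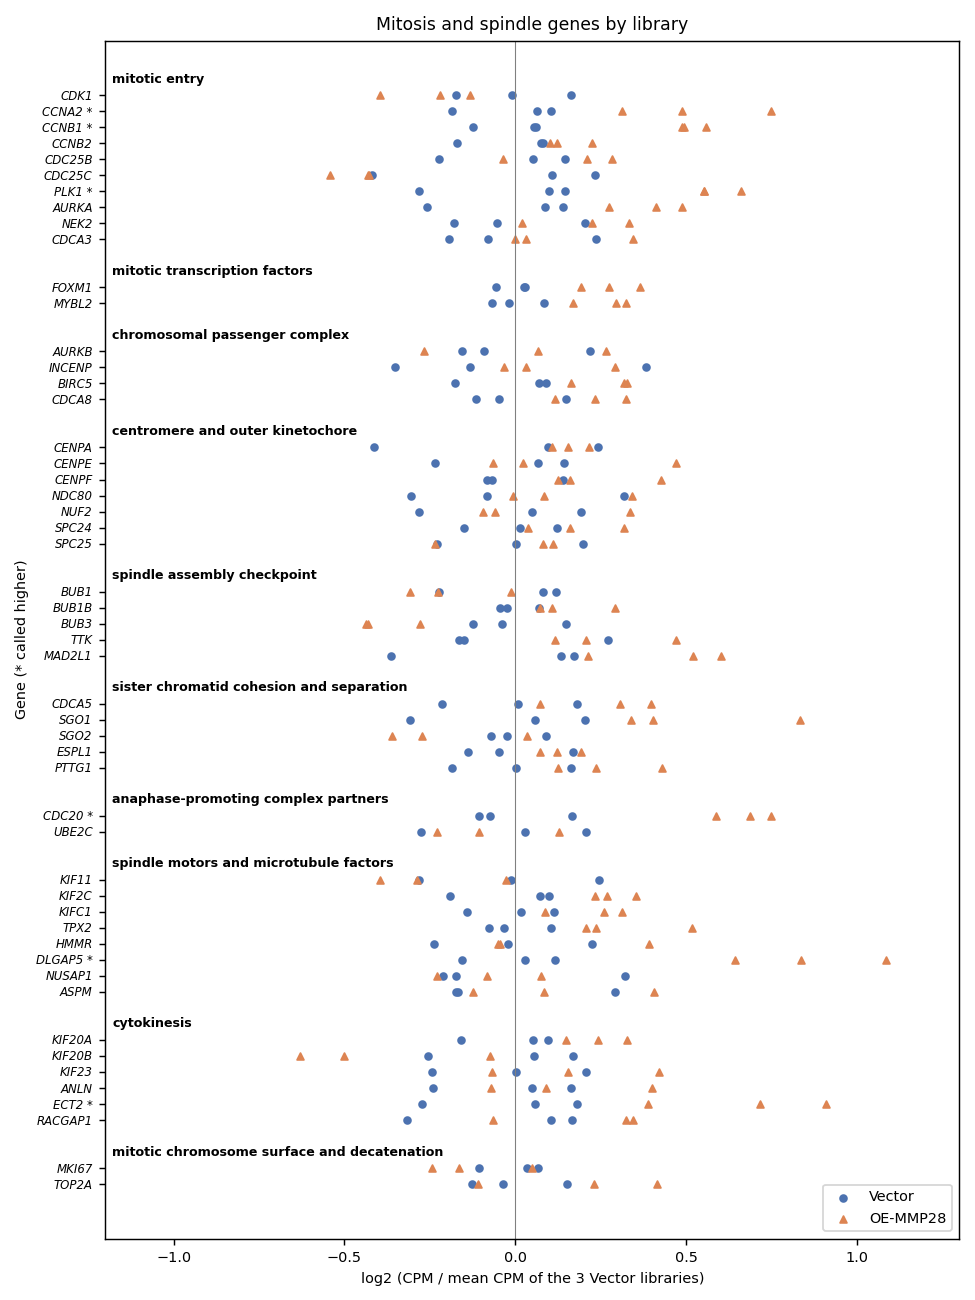
Each of 51 genes (y axis, by role; PRC1 is left out for its low counts) in the 3 Vector libraries (circles) and the 3 OE-MMP28 libraries (triangles), as the log2 of its CPM over the mean CPM of the Vector group (x axis). Asterisks mark the 6 genes called higher, whose triangles all lie to the right of their circles.

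Within each group the members tended to be high or low in the same library. Vector replicate 3 had the highest value of its group for 39 of the 52 members, against 28.4% of all genes tested. Vector replicate 2 had the lowest for 36 of the 52, against 39.2% of all genes. In the OE-MMP28 group, replicate 1 was highest for 33 of the 52, against 38.8% of all genes, and replicate 3 lowest for 33 of the 52, against 35.3%. Each of these shares was larger among the members than among all genes. Summed over the 52 members, the CPM of the Vector libraries came to 5013, 4611 and 5460, in the order of their replicate numbers. The OE-MMP28 libraries came to 6075, 5550 and 5241. The sums of the groups therefore overlapped, since OE-MMP28 replicate 3 fell under Vector replicate 3. The median log2 fold change of the members was 0.27 without Vector replicate 3 and 0.12 without Vector replicate 2.

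The direction of several members followed the chromosome they lie on, a pattern seen after the values were known. All 5 members on chromosome 10 had values under 0 (CDK1, BUB3, KIF11, KIF20B and MKI67), as did 3 of the 4 on chromosome 2 (BUB1, SGO2 and SPC25, but not CENPA). SPC25 was close to 0, at -0.0078, and turned positive without Vector replicate 3 (0.10) or without OE-MMP28 replicate 3 (0.097). The median of all genes tested was -0.47 on chromosome 10 and -0.41 on chromosome 2, where 40.3% and 34.7% of genes were called lower. On chromosome 14, which holds DLGAP5, the median of all genes was 0.56 and 50.6% were called higher. For each member the local median was taken, the median log2 fold change of the other tested genes within 5 Mb on either side. It was -0.56 around MKI67, -0.59 around BUB3, -0.58 around CENPA, 0.56 around DLGAP5, 0.35 around ECT2 and 0.31 around PLK1. Around CDK1 it was only -0.09. Pearson's r between the change of a member and its local median was 0.62 and Spearman's rho 0.45, across 52 genes that share the same 6 libraries and in some cases the same neighbours. The cause of these regional shifts, such as a difference in chromosome copies between the lines, was not tested.

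Of the 7 members with a local median under -0.3, 6 had values under 0, and the 3 members with one over 0.3 were DLGAP5, ECT2 and PLK1. In the remaining 42, whose neighbourhoods shifted by 0.3 or less, 36 had values above 0, the median was 0.19, and the calls were CDC20, CCNB1 and CCNA2. A fit with the local median as an offset gave a change relative to the neighbours. Its offset was computed from the same 6 libraries and treated as known, so its p-values leave out the error of the local medians. The fit called 6 members (11.5%) higher and 0 lower, against 7.42% and 8.02% of all genes. Values were above 0 in 44 of 52. Only 3 of the 6, CDC20, CCNB1 and CCNA2, were also called without the offset. The others were MKI67 (0.45, adjusted p = 0.0387), AURKA (0.57, adjusted p = 0.0148) and CENPA (0.74, adjusted p = 0.0182). DLGAP5 (0.30, adjusted p = 0.224), ECT2 (0.34, adjusted p = 0.183) and PLK1 (0.27, adjusted p = 0.246) were no longer called. The values of BUB3, KIF11 and KIF20B turned from below 0 to 0.21, 0.24 and 0.072 and were not called. Those of BUB1, SGO2, SPC25 and UBE2C also turned positive, at 0.15, 0.18, 0.21 and 0.026. CDK1, CDC25C, NUSAP1 and PRC1 stayed below 0, at -0.15, -0.51, -0.020 and -0.20. In the other direction, NEK2, AURKB, INCENP and ASPM turned from above 0 to -0.0057, -0.054, -0.13 and -0.030. None of these was called.

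**Figure D4:**
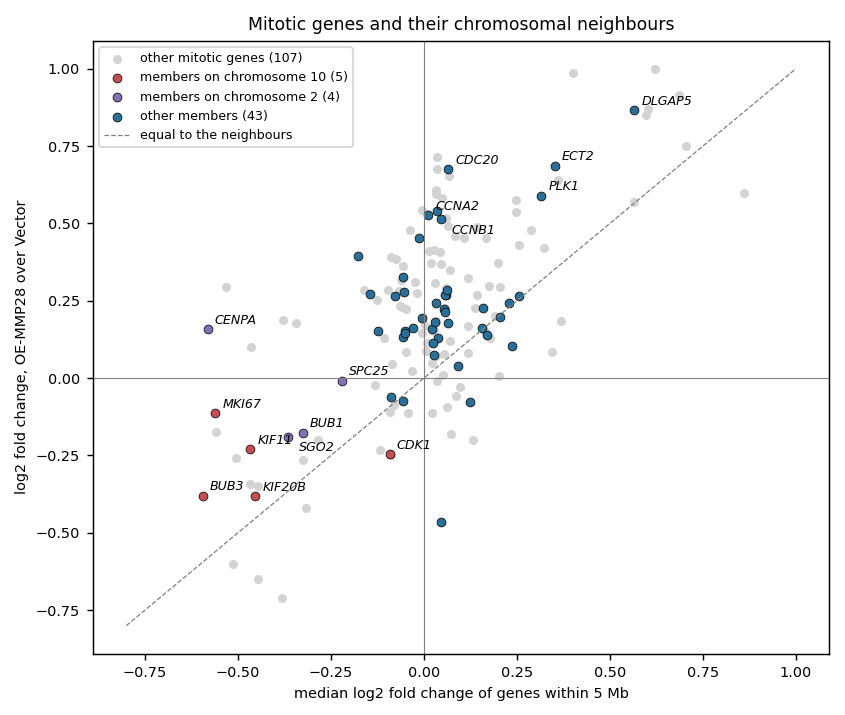
The log2 fold change of each gene (y axis) against the median log2 fold change of the genes within 5 Mb of it (x axis), for the 52 members by chromosome and for 107 other mitotic genes in grey. The dashed line marks equality. The members MKI67, BUB3, KIF11, KIF20B, BUB1, SGO2, SPC25 and UBE2C lie above it but below 0.

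The rest of the mitotic machinery was read from a list of 107 other genes. Of these, 22 were called higher (20.6%, against 11.7% of all genes) and 3 lower (2.80%, against 11.6%). Values above 0 were found in 84 of the 107, against 51.2% of all genes. The median log2 fold change was 0.23. The called genes with the smallest adjusted p were NCAPD3, a condensin II subunit, at 1.00, ANAPC13 at 0.91 and ANAPC15 at 0.99, subunits of the anaphase-promoting complex, CDKN3, a phosphatase of CDK1 and CDK2, at 0.87, STAG1, a cohesin subunit, at 0.75, and ZW10, a checkpoint protein, at 0.64. Each of these 6 had a local median of 0.36 or more. SMC3, a cohesin subunit, at -0.65, CENPT, a kinetochore protein, at -0.71 and MASTL, the Greatwall kinase, at -0.60 were called lower and had local medians of -0.45, -0.38 and -0.51. With the local offset 11 of the 107 (10.3%, against 7.42% of all genes) were called higher, 5 of them shared with the fit without it. Called lower were 0, against 8.02% of all genes. Without OE-MMP28 replicate 2 the count called higher was 7, or 6.54% against 6.27% of all genes. It was 11 without Vector replicate 2, 14 without OE-MMP28 replicate 3 and 22 with all libraries. Over all genes, 2929 of 15662, 2659 of 15678 and 3579 of 15319 were called in either direction in those fits.

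Genes of S phase, when DNA is copied before mitosis, had a higher median than either mitotic list. Of 31 such genes 15 were called higher (48.4%, against 11.7% of all genes) and 0 lower (against 11.6%), and the median log2 fold change was 0.47. MCM2 and MCM5, subunits of the replicative helicase, had values of 1.15 and 0.80, UNG, a uracil-DNA glycosylase, 1.07, PCNA, the sliding clamp, 0.71, RFC4, a subunit of the loader of that clamp, 0.77 and GINS3, a helicase partner, 0.87, each with an edgeR adjusted p of 0.00706 or less. MCM2 and RFC4 had local medians of 0.55 and 0.41. With the offset the value of MCM2 was 0.61 (adjusted p = 0.0228), and that of RFC4 was 0.35 (adjusted p = 0.198) and no longer called. With the local offset 17 of the 31 were called higher (54.8%, against 7.42% of all genes), 12 of them shared. Without OE-MMP28 replicate 2 the count was 7 (22.6%, against 6.27%). The difference between the lists was not tested.

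**Figure D5:**
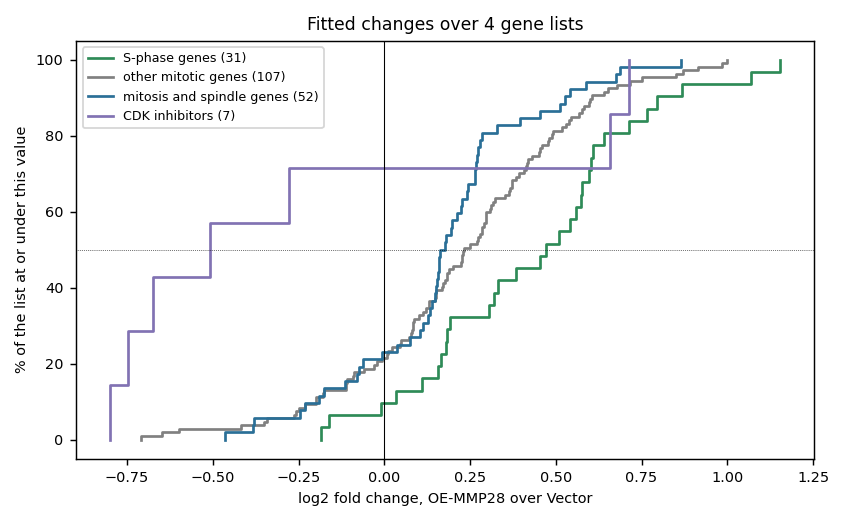
Cumulative share of genes (y axis, %) at or under a log2 fold change of OE-MMP28 over Vector (x axis), for the 52 mitosis and spindle genes, 107 other mitotic genes, 31 S-phase genes and 7 cyclin-dependent kinase (CDK) inhibitors. The curves cross the 50% line at medians of 0.17, 0.23, 0.47 and -0.51.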

How the data were processed

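The authors deposited 1 table with raw read counts per gene and FPKM values for the 6 libraries, made from NEBNext Ultra libraries sequenced on Illumina instruments. The submitters' processing notes name HISAT2 2.0.5 and featureCounts 1.5.0-p3, and whether counting used the strand was not given in the sources used here. The table also held 5 columns of the authors' own comparison (group means, fold change and p-values), which were not used. Identifiers and coordinates of all 52 members equalled those of GENCODE release 29 on GRCh38.

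Counts were filtered with filterByExpr (minimum count 10, minimum total 15), scaled by TMM and tested with edgeR 4.0.16 in R 4.3.3 (glmQLFit and glmQLFTest, group as the only term), although the study's methods name limma, since counts call for a count model. P-values were adjusted over all 15319 genes (Benjamini-Hochberg). CPM used the TMM-scaled library size. The script was tested on simulated data. Alternatives used DESeq2 1.42.0, limma 3.58.1 on voom values and on log2(FPKM + 1) or log2(FPKM + 0.1) with a mean of at least 0.5 FPKM, other scalings, a replicate block, each library left out, and local medians (at least 10 neighbours) as offsets. Values in every library are given for MKI67, for called members, and for the largest change in each role without a call. The members and lists, and the tests, were chosen with earlier results of these data known, and the limit of 0.3 on local medians was set after the values were seen.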

Additional observations from a re-analysis of the deposited data

How the results depend on the processing

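The count of members called higher was 5 to 7 in 15 of the 16 alternative fits, and 3 to 7 when single libraries were left out, the lowest without OE-MMP28 replicate 2. It was 0 with the added limit of 1 on the absolute log2 fold change. Members called lower numbered 1 with upper-quartile scaling, with DESeq2 and without mitochondrial genes (BUB3 each time), and 0 to 2 with libraries left out. The median log2 fold change of the members was 0.12 to 0.27 over the fits. Among the 107 other mitotic genes, 7 were called higher with limma on log2(FPKM + 1) and on log2(FPKM + 0.1), 11 with the local-median offset, 7 to 20 with libraries left out and 1 with the fold limit. The count over all genes fell as well. In either direction those limma fits called 1974 and 1970 of 15218 genes, against 3579 of 15319 in the main fit. With libraries left out 2029 to 3865 genes were called. The offset called 7.42% of all genes higher, and the fold limit 3.06%. Called lower were 1 on log2(FPKM + 0.1), 0 with the offset, 1 to 5 with libraries left out and 0 with the fold limit. CCNA2 was not called by limma on log2(FPKM + 1) (adjusted p = 0.0699) or on log2(FPKM + 0.1) (0.0710).

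With the offset the log2 fold changes of MKI67 (0.45), BUB3 (0.21), KIF11 (0.24) and KIF20B (0.072) turned positive, as did those of BUB1, SGO2, SPC25 and UBE2C. The log2 fold change turned negative for NEK2, AURKB, INCENP and ASPM. With single libraries left out, that of CENPA ran from -0.011 without Vector replicate 2 to 0.29 without Vector replicate 3. That of PRC1 ran from -0.86 without OE-MMP28 replicate 1 to 0.24 without OE-MMP28 replicate 3, and was 0.19 without Vector replicate 3 and 0.14 without OE-MMP28 replicate 2. KIF20B was called lower without Vector replicate 2 (-0.49) and without OE-MMP28 replicate 1 (-0.58), and CDC25C without Vector replicate 1 (-0.64). The causes were not tested.

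The replicate numbers did not pair the samples. Deviations of same-numbered libraries correlated at 0.02, 0.01 and -0.09 across 15319 genes, and 0 Vector libraries correlated best with their own number. With the replicate block 7 members were called higher and 0 lower, the added one being MAD2L1 (log2 fold change 0.46, adjusted p = 0.0423). Among the 107 other genes 22 were called higher and 3 lower, and the median of the members was 0.18. With 3 libraries a group the median 95% interval of a member was 0.66 wide on the log2 scale from end to end, so that small differences could be missed.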

Other observations

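The inhibitors of cyclin-dependent kinases, which hold cells back from S phase and mitosis, did not move in 1 direction. Of 7 such genes, CDKN1A, the p21 gene, was called higher in OE-MMP28 cells (log2 fold change 0.66, edgeR adjusted p = 0.0229), while CDKN1B, the p27 gene (-0.67, adjusted p = 0.00859), and CDKN2B, the p15 gene (-0.51, adjusted p = 0.0151), were called lower. The share called higher was 14.3%, against 11.7% of all genes tested. Called lower were 2 of the 7, against 11.6% of all genes, and 5 of the 7 had values under 0. With 7 genes, these calls say little about the inhibitors as a set. The median over the 7 was -0.51. CDKN1B and CDKN2B had local medians of -0.09 and 0.05.

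Some genes that overlap members were called, with no change called in the member itself. BRD8, which overlaps 268 bases of KIF20A on the opposite strand, was lower in OE-MMP28 cells (-0.63, edgeR adjusted p = 0.00318), as was NOSTRIN, which overlaps SPC25 (-0.82, adjusted p = 0.00257). Whether reads of these genes entered the counts of the members was not tested.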
